A study of Rattus norvegicus with 26 samples.

Results

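The miR-10, miR-99/100 and miR-125 families were followed in regenerating rat liver. The members were the 7 mature miRNAs that the arrays carry under the names rno-miR-10a-5p, rno-miR-10b, rno-miR-99a, rno-miR-99b, rno-miR-100, rno-miR-125a-5p and rno-miR-125b-5p, out of 677 miRNAs in all. They were chosen by name and not by their values. RNA came from the right lobes of 26 male Sprague-Dawley rats, 1 rat per single-colour array, in 9 groups. Normal livers (n = 3) came from rats without partial hepatectomy (PH), although 1 of their labels reads sham. Remnant livers came from rats operated on 6, 12, 24 or 36 hours before, either by 1/3 PH, in which the left lateral lobe is removed, or by 2/3 PH, with n = 2 for 1/3 PH at 6 hours and n = 3 in every other group. Some source labels give slightly later hours than the titles, and the titles were followed. The comparison of 1/3 PH with 2/3 PH sets a small deficit of liver mass, known to cause little DNA replication, against a large one that drives hepatocytes into the cell cycle. No group carried a transgene or a drug. Whole lobes were used, so fewer cells of a type and less RNA per cell cannot be told apart.

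miR-10a and miR-10b are encoded inside clusters of Hox genes, the transcription factors that set position along the body axis, and are usually transcribed with them. miR-99a, miR-99b and miR-100 share a seed with each other but not with miR-125a and miR-125b, and known targets of miR-99/100 include the growth kinase mTOR. miR-125 is known as a brake on Lin28 and as an abundant miRNA of blood stem cells. Genes of the last 2 families lie in order with a let-7 gene in 3 clusters, an arrangement found across vertebrates.

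The mature sequences of 6 of the 7 members were found in RefSeq (rat assembly GRCr8) and are shown because the seed, bases 2 to 8 in capitals, sorts the members into families. rno-miR-99a is named without one. let-7e is added as the neighbour of miR-99b and miR-125a.
rno-miR-10a-5p: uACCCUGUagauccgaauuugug
rno-miR-10b-5p: cCCUGUAGaaccgaauuugugu
rno-miR-99b-5p: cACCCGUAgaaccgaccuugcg
rno-miR-100-5p: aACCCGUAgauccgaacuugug
rno-miR-125a-5p: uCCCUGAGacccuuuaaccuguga
rno-miR-125b-5p: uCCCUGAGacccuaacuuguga
rno-let-7e-5p: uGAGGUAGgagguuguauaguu

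miR-99b and miR-100 had the seed ACCCGUA in common, and miR-125a and miR-125b the seed CCCUGAG. miR-10a has the seed ACCCUGU. The RefSeq entry of miR-10b starts 2 bases further in than miR-10a, so that its bases 2 to 8 read CCUGUAG, while 20 of the 21 bases that overlap were identical between the pair. Without gaps, miR-10a and miR-100 were identical at 19 of 22 bases, miR-99b and miR-100 at 18 of 22, and miR-125a and miR-125b at 15 of 22.

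In GRCr8, miR-10a lies on the plus strand at chr10:81779730-81779752, between the genes Hoxb5 and Hoxb4. miR-10b lies on the plus strand at chr3:80035886-80035907, within the span of Hoxd4. On chromosome 1 the hairpins of miR-99b, let-7e and miR-125a follow each other within the span of Spaca6, with 95 bases between the first pair and 353 between the second, and mature miR-125a-5p at chr1:67350689-67350712 on the plus strand. On chromosome 8 miR-100, let-7a-2 and miR-125b-1 lie in this order within the noncoding gene Mir100hgl, with miR-100 at chr8:50798307-50798328. This cluster is wider, with 6828 bases between the hairpins of the first pair and 44737 between those of the second. On chromosome 11 miR-99a, let-7c-1 and miR-125b-2 lie within the noncoding gene LOC103693508. There are 639 bases between the hairpins of the first pair. The let-7c-1 hairpin ends at base 29688205, and miR-125b-5p lies further on, at chr11:29732588-29732609. miR-125b-5p has a gene in each of the last 2 clusters, and an array signal cannot be divided between them.

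Values are scaled signals, the summed probe signal of a miRNA divided by the array's 75th percentile over 109 bright probes and multiplied by 1 constant, and are given as log2 unless said otherwise. A signal under the lowest clearly measured probe of its array was raised to that floor. By the scanner software's own call, miR-10a-5p, miR-99a, miR-125a-5p and miR-125b-5p were detected on 26 of 26 arrays and miR-100 on 23. miR-10b was detected on 7 arrays and miR-99b on 2, so these 2 entered no test. The test was 1 limma model with a mean for each of 9 groups, fitted to the 144 miRNAs that had at least 1 group with detection on all its arrays, 5 of them members, with a call at an adjusted p under 0.05 within each comparison. 1 array, m5m of 12 hours after 1/3 PH, was dim, with a total signal of 17273 against 57383 to 93760 and 91 miRNAs detected against 118 to 155. There were 6 slides and 3 scan days. For 36 hours, 1/3 PH was read on the first day alone, and 2/3 PH on the other days, and the operations shared no slide. The liver markers miR-122, miR-192 and miR-194 were detected on all 26 arrays, and miR-148a of the same list was not analysed here.

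miR-10a-5p, the member from the Hoxb cluster, fell late after 2/3 PH. In normal livers it measured 7.56, 7.55 and 7.37 (mean 7.49 ± 0.11, SD). After 2/3 PH it measured 7.58, 7.71 and 7.61 at 6 hours and 7.27, 7.50 and 7.24 at 12 hours. At 24 hours it measured 7.11, 7.16 and 6.99, and at 36 hours 6.93, 6.77 and 6.95. All arrays of the last 2 times lay below the lowest normal liver, and those of 6 hours lay above the highest one. After 1/3 PH it measured 7.48 and 7.56 at 6 hours, 7.46, 7.21 and 7.39 at 12 hours, 7.12, 7.33 and 7.23 at 24 hours, and 7.32, 7.36 and 7.36 at 36 hours. The arrays of 24 and 36 hours after 1/3 PH also lay below every normal liver, without passing the test.

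**Figure D1:**
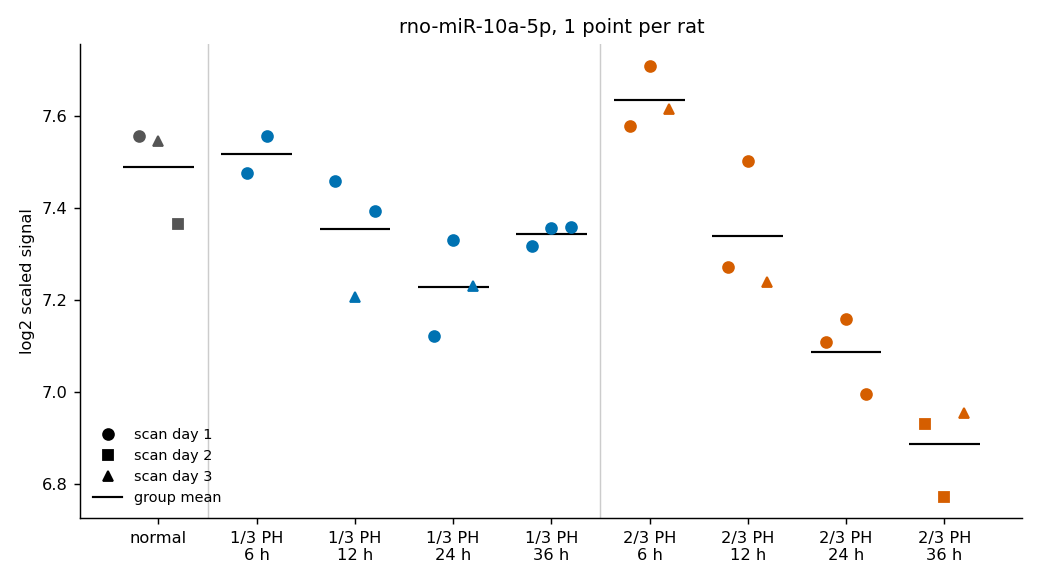
Log2 scaled signal of rno-miR-10a-5p on the vertical axis for each of the 26 rats, in the 9 groups along the horizontal axis. Black lines are group means and marker shapes give the scan day. The 3 rats at 36 hours after 2/3 PH sit between 6.77 and 6.95, below all others, and normal livers between 7.37 and 7.56.

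Against normal liver, the log2 difference of miR-10a-5p was -0.40 at 24 hours after 2/3 PH (SE 0.10, 95% interval -0.61 to -0.19, adjusted p = 0.0126), which is 0.757 of the normal level. At 36 hours it was -0.60 (SE 0.10, 95% interval -0.81 to -0.39, adjusted p = 0.000288), or 0.658 of normal. It turned to 0.045 with normexp background correction, which put the median of all tested miRNAs at 0.63, so that miR-10a-5p stayed 0.58 below that median. On the second scan day, 2 arrays of 36 hours lay 0.51 below the 1 normal liver, and on the third day 1 array lay 0.59 below the 1 normal liver. On the first day, the 3 arrays of 24 hours lay 0.47 below the 1 normal liver. These 3 arrays were on 1 slide that held no normal liver, so at 24 hours group and slide cannot be told apart. Slide as a fixed block could not be fitted for that comparison. The call at 24 hours was lost without m31B of that group (-0.36, adjusted p = 0.0558), and no other single array ended it, nor did any end that at 36 hours. The call at 24 hours was also lost under 7 of 15 other settings, with values from -0.86 (75th percentile over all probes) to -0.21 (normexp), among them quantile normalization (-0.28, adjusted p = 0.0609), the deposited log2 values (-0.26, adjusted p = 0.304) and a fit of the compared groups alone (adjusted p = 0.108). The call at 36 hours was lost under 3 of 15, normexp, no scaling and the percentile over all probes.

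miR-10a-5p was also lower after 2/3 PH than after 1/3 PH at 36 hours, by a log2 difference of -0.46 (95% interval -0.67 to -0.25, adjusted p = 0.00412), with no overlap between the groups. The sign turned with the 75th percentile over all probes (0.027, 0.34 below the median of all tested miRNAs) and with normexp (0.11, 0.41 below that median), and the call was lost with no scaling (-0.59, adjusted p = 0.738). No scan day and no slide held both operations at this time, so there is no value within a day or a slide. With scan day as a block the difference was -0.29 (adjusted p = 0.189). At 6, 12 and 24 hours the difference between the operations was 0.12, -0.015 and -0.14, none of them called. Within 2/3 PH, miR-10a-5p fell from 6 to 36 hours by 0.75 (SE 0.10, adjusted p = 1.18e-05), to 0.595 of its level at 6 hours, and by 0.61 with scan day as a block (adjusted p = 0.00117). This call was lost with slide as a fixed block (-0.58, adjusted p = 0.0673), with the 75th percentile over all probes (-0.75, adjusted p = 0.567), with no scaling (-0.73, adjusted p = 0.343) and with normexp (-0.28, adjusted p = 0.997). Within 1/3 PH it differed by -0.17 between these times (95% interval -0.41 to 0.062, adjusted p = 0.65).

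The difference between the operations in miR-10a-5p itself changed from 6 to 36 hours by -0.58 (SE 0.15, adjusted p = 0.0315). This call was lost without any 1 of 8 arrays, which were m62, m64, m70B, m76, m46, m47, m37B and m39B, with values from -0.62 to -0.52 and adjusted p from 0.0553 to 0.172. With scan day as a block it was -0.44 (adjusted p = 0.132), and with the 75th percentile over all probes it turned to 1.18, where the median of all tested miRNAs stood at 1.65. On m62 of 6 hours after 1/3 PH that percentile was 0.334 signal units, against 287 over the bright probes. Among all 9 groups the F test gave 10.1 for miR-10a-5p (adjusted p = 0.00044), and the groups accounted for 87.9% of its variation over arrays, the slides for 58.3% and the scan days for 22.0%. Ordered by mean, the groups ran from 6 hours after 2/3 PH (7.63 ± 0.068) and after 1/3 PH (7.52 ± 0.056) through normal liver, 12 hours after 1/3 PH (7.35 ± 0.13), 36 hours after 1/3 PH (7.34 ± 0.023), 12 hours after 2/3 PH (7.34 ± 0.14) and 24 hours after 1/3 PH (7.23 ± 0.10) to 24 hours (7.09 ± 0.083) and 36 hours (6.89 ± 0.10) after 2/3 PH. Neighbours in this order overlapped, apart from the first pair and the last pair.

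Both probes of miR-10a-5p were well above background on all 26 arrays. Taken alone, they gave -0.68 and -0.57 for 36 hours after 2/3 PH against normal liver, and -0.37 and -0.42 for 24 hours.

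miR-10b, the member from the Hoxd cluster, was close to background everywhere. It was detected on 2 of 3 normal livers, on 1 array each of 24 and 36 hours after 1/3 PH and of 6, 12 and 24 hours after 2/3 PH, and on none of 6 or 12 hours after 1/3 PH or of 36 hours after 2/3 PH. Of its 2 probes, 1 reached a median of 7.24 linear scaled units and the other 0.0053. Its signal before scaling ran from 2.32 to 15.2 units with a median of 6.51, and lay at or under the floor on 22 of 26 arrays, so no fold is given and no direction can be read.

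The other miRNAs of the Hox clusters were no better measured. Of 7 listed (both arms of miR-196a, miR-196b and miR-196c, and miR-615), 6 were detected on no array and miR-196c on 3 arrays, so 0 of 7 could be tested.

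miR-99a, the let-7c neighbour on chromosome 11, showed no call in any of the 15 comparisons. Its mean was 8.63 ± 0.19 in normal liver, 8.69 ± 0.042, 8.73 ± 0.42, 8.93 ± 0.22 and 8.74 ± 0.22 at the 4 times after 1/3 PH, from 6 to 36 hours, and 8.68 ± 0.078, 8.87 ± 0.071, 8.65 ± 0.057 and 8.57 ± 0.051 after 2/3 PH. In the order of these means, from 24 hours after 1/3 PH down to 36 hours after 2/3 PH, the groups next to each other overlapped. Every operated group overlapped the normal livers. At 36 hours after 2/3 PH its difference from normal was -0.058 (95% interval -0.40 to 0.28), and at 24 hours after 1/3 PH it was 0.30 (95% interval -0.038 to 0.65, adjusted p = 0.511). The groups accounted for 32.6% of its variation and the slides for 56.8%. Its lowest value, 8.25, came from the dim array m5m.

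miR-100, the let-7a neighbour on chromosome 8, was measured near the floor. On 9 of 26 arrays it lay at or under the floor, among them both arrays of 6 hours after 1/3 PH and 2 of 3 arrays of 36 hours after 2/3 PH, and 1 of its 2 probes never rose well above background. In normal livers it measured 3.78, 3.92 and 3.42. At 36 hours after 2/3 PH it measured 3.38, 3.48 and 3.43 and at 6 hours 3.76, 4.41 and 3.84, where 4.41 is the floor of m70B. The log2 difference between these times was -0.57 (SE 0.22, adjusted p = 0.0512), and with a floor of 1 signal unit it was -0.50 (adjusted p = 0.18). At 12 hours after 1/3 PH its difference from normal was 0.63 (adjusted p = 0.0804), which was 0.47 without m5m (adjusted p = 0.256) and 0.17 with a floor of 1 signal unit (adjusted p = 0.748). Its group means ran from 3.43 ± 0.051 at 36 hours after 2/3 PH to 4.34 ± 0.29 at 12 hours after 1/3 PH, with 3.71 ± 0.26 in normal liver, 3.88 ± 0.41, 4.20 ± 0.31 and 3.95 ± 0.27 at 6, 24 and 36 hours of 1/3 PH, and 4.003 ± 0.35, 4.13 ± 0.17 and 3.996 ± 0.22 at the first 3 times of 2/3 PH. Groups next to each other in this order overlapped.

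miR-125a-5p, which sits with let-7e and miR-99b in Spaca6, was lowest at 36 hours after 2/3 PH. It measured 4.34, 4.16 and 4.30 there, 4.83, 4.75 and 4.47 at 36 hours after 1/3 PH, and 4.73, 4.82 and 4.63 at 6 hours after 2/3 PH. In normal livers it measured 4.82, 4.49 and 4.37. The arrays of 36 hours after 2/3 PH lay below those of each of these groups. The other groups had means of 4.76 ± 0.15, 4.87 ± 0.17 and 4.67 ± 0.14 at 6, 12 and 24 hours after 1/3 PH and of 4.76 ± 0.16 and 4.62 ± 0.092 at 12 and 24 hours after 2/3 PH. By mean, the lowest group and its neighbour, normal liver, were the only neighbours in the order without overlap. The signal of miR-125a-5p rested on 1 of its 2 probes, with a median of 24.3 linear scaled units. The other had a median of 1.31 and was well above background on 0 of 26 arrays. The highest array floor, on m5m, was 25.6 units.

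Within 2/3 PH miR-125a-5p fell from 6 to 36 hours by 0.46 (SE 0.14, 95% interval -0.74 to -0.17, adjusted p = 0.0144). The call was lost without m70B (-0.41, adjusted p = 0.0531) or m39B (-0.40, adjusted p = 0.0576), and the difference was -0.29 with scan day as a block (adjusted p = 0.251) and -0.15 with slide as a fixed block (adjusted p = 0.862). It was lost under 8 of 15 other settings in all, and was -0.026 with normexp. On the third scan day, which held 1 array of each time, it was -0.33. Between the operations at 36 hours the difference was -0.42 (SE 0.14, adjusted p = 0.0465), and it turned to 0.070 with the 75th percentile over all probes and to 0.55 with normexp. This call rested on the whole set of arrays: it was lost without any 1 of 17 of the 26, with adjusted p from 0.0513 to 0.174 and values from -0.45 without m37B to -0.34 without m45B. Against normal liver the difference at 36 hours after 2/3 PH was -0.29 (adjusted p = 0.139), and that at 12 hours after 1/3 PH was 0.31 (adjusted p = 0.136), where m5m lay at its floor.

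miR-125b-5p, made from the miR-100 and the miR-99a cluster, passed no test. Its means were 7.66 ± 0.12 in normal liver, 7.67 ± 0.039, 7.96 ± 0.32, 7.97 ± 0.20 and 7.69 ± 0.25 at the 4 times after 1/3 PH, and 7.91 ± 0.14, 8.05 ± 0.20, 7.63 ± 0.12 and 7.47 ± 0.34 after 2/3 PH. At 12 hours after 2/3 PH it measured 7.96, 7.91 and 8.29, all above the normal livers of 7.67, 7.78 and 7.54, with a log2 difference of 0.39 (95% interval 0.012 to 0.76, adjusted p = 0.242). At 36 hours after 2/3 PH it split by scan day, with 7.18 and 7.38 on the second day and 7.84 on the third. All groups next to each other in the order of the means overlapped. The difference of 36 from 6 hours after 2/3 PH was -0.44 (adjusted p = 0.073).

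miR-99b was detected on 1 normal liver and on 1 array of 6 hours after 2/3 PH, and lay at the floor on 25 arrays. Neither of its 2 probes was well above background on any array.

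**Figure D2:**
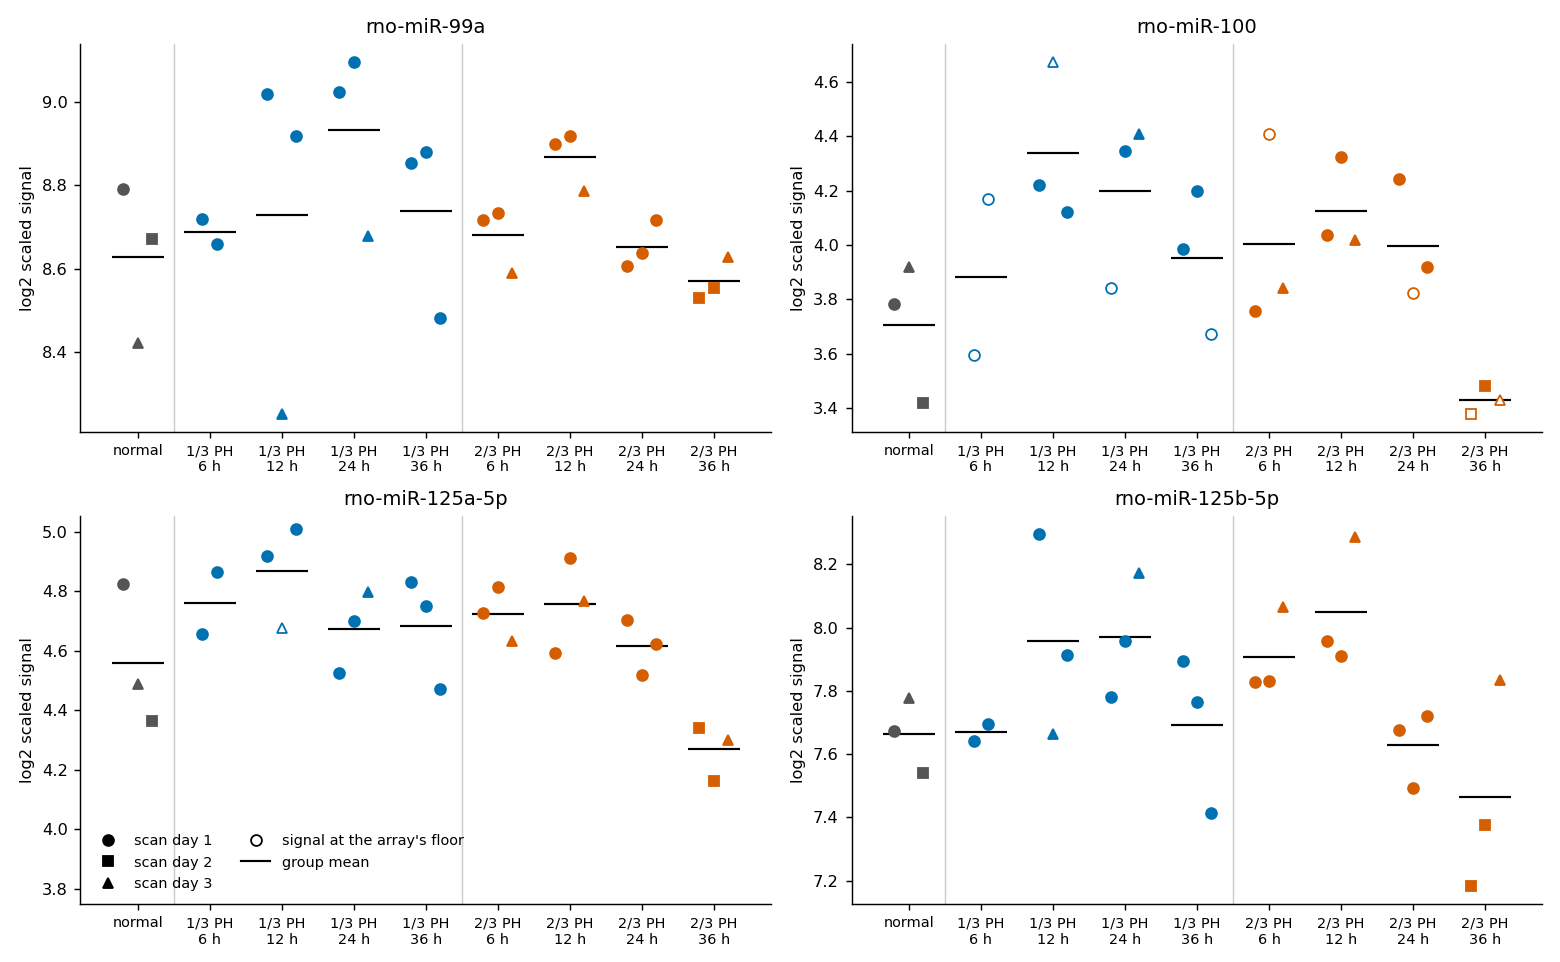
Log2 scaled signal of rno-miR-99a, rno-miR-100, rno-miR-125a-5p and rno-miR-125b-5p for each of the 26 rats, by group, each panel with its own vertical axis. Open markers are signals at the array's floor, black lines are group means and shapes give the scan day. rno-miR-100 has 9 open markers, and the mean at 36 hours after 2/3 PH is the lowest of the 9 in all 4 panels.

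Counted over the 5 members tested, limma called 0 against normal liver at each of the 4 times after 1/3 PH, where from 6 to 36 hours it called 0%, 4.17%, 0.694% and 0% of all 144 miRNAs. At an unadjusted p under 0.05 the members counted 0, 2, 2 and 0, and all miRNAs 8, 38, 16 and 7. After 2/3 PH it called 0, 0, 1 and 1 members at these times, beside 0%, 6.94%, 18.1% and 18.8% of all miRNAs, so that the share of members was close to that of all miRNAs at 24 and 36 hours. Between the operations it called 0, 0, 0 and 2 members, beside 0%, 0%, 2.78% and 15.3% of all, with 0 members at an unadjusted p under 0.05 at 6, 12 and 24 hours.

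From 6 to 36 hours, limma called 0 of 5 members after 1/3 PH (0% of all miRNAs, and 0 members at an unadjusted p under 0.05) and 2 of 5 after 2/3 PH, beside 28.5% of all miRNAs. In the change of the difference between the operations it called 1 member and 4.17% of all, and in the F test over 9 groups 1 member and 29.9% of all. Against normal liver at 24 hours after 2/3 PH, 2 of 5 members were below and 3 above, with a median of 0.025 where all miRNAs had 0.047. At 36 hours all 5 were below normal liver, with a median of -0.28 where all miRNAs had a median of 0.061, all 5 were below 1/3 PH (median -0.42 against -0.12) and all 5 were below 6 hours (median -0.46 against -0.038). At 12 hours 4 of 5 were above normal liver after either operation, and miR-10a-5p was the exception in both. Other scalings moved these signs: normexp put 0 of 5 below normal liver at 36 hours and 1 of 5 below 1/3 PH, as did the 75th percentile over all probes for the latter, although 3 and 3 (normexp) and 5 (percentile) stayed below the median of all miRNAs, and the percentile over all probes put 5 of 5 below normal at 12 hours after 1/3 PH and 3 of 5 after 2/3 PH.

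**Figure D3:**
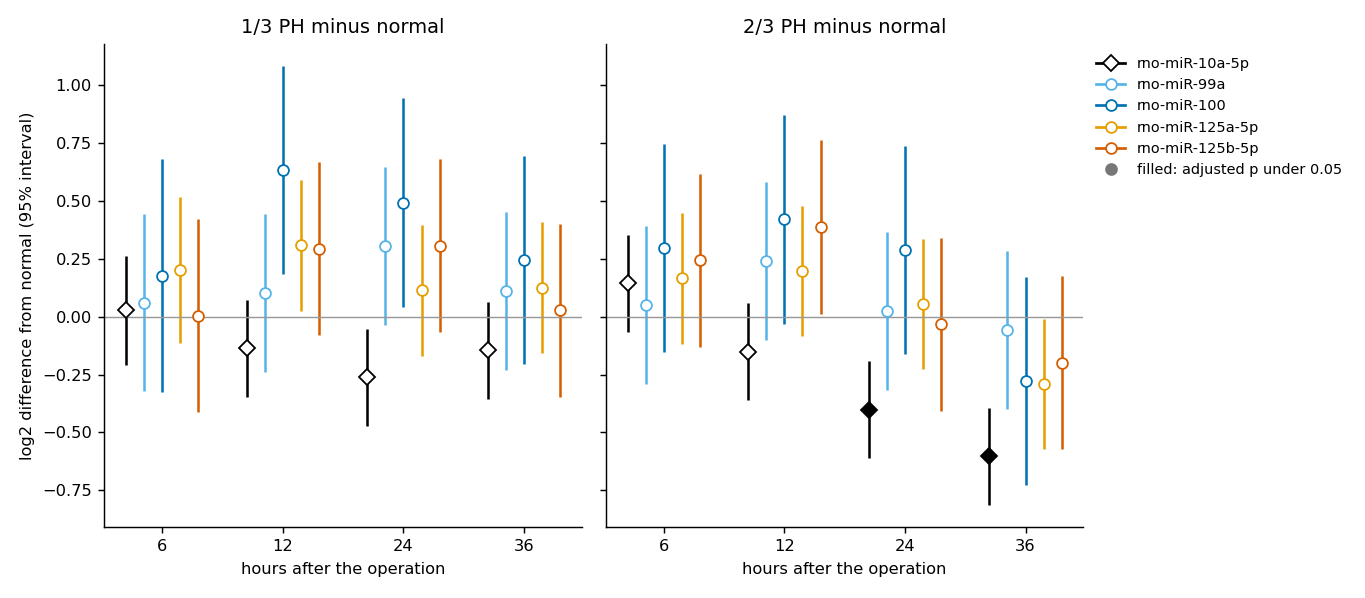
Log2 difference from normal liver of the 5 members tested, by hours after 1/3 PH (left) and 2/3 PH (right), with 95% intervals from the limma fit. Filled markers have an adjusted p under 0.05, which only rno-miR-10a-5p reached, on the right at 24 hours (-0.40) and 36 hours (-0.60, which turned to 0.045 with normexp, where the median of all miRNAs was 0.63).

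The Hox member was then set against the other families on each array, as miR-10a-5p minus the mean of miR-99a, miR-100, miR-125a-5p and miR-125b-5p relative to normal liver, a measure that no scaling of a whole array changes, apart from the floor. It is a description over members and carries no test. The normal livers lay at 0 ± 0.055 and the groups of 6 hours at -0.083 ± 0.081 after 1/3 PH (n = 2) and -0.044 ± 0.037 after 2/3 PH. At 12 hours the difference was -0.47 ± 0.031 after 1/3 PH and -0.46 ± 0.11 after 2/3 PH. At 24 hours it was -0.57 ± 0.059 and -0.49 ± 0.15. At 36 hours it was -0.27 ± 0.24 after 1/3 PH, where the array m47 lay at -0.0012, and -0.40 ± 0.10 after 2/3 PH. All 12 arrays of 12 and 24 hours lay below the 3 normal livers, whose lowest value was -0.061.

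How the gap came about differed with time. At 12 hours after 2/3 PH, miR-10 lay 0.15 below normal and the miR-99/100 and miR-125 means 0.33 and 0.29 above it. At 24 hours miR-10 lay 0.40 below and the others 0.16 and 0.011 above, and at 36 hours all lay below, by 0.60, 0.17 and 0.24. At 12 hours after 1/3 PH the gap was -0.37 without miR-100, which is at the floor on m5m, and it was -0.10 with quantile normalization and 0.011 with the deposited log2 values. The other gaps moved too. At 24 hours they were -0.28 after 1/3 PH and -0.26 after 2/3 PH with normexp, at 12 hours after 2/3 PH the gap was -0.25 with quantile normalization, and at 36 hours after 2/3 PH it was -0.13 with the deposited values. The gaps at 6 hours turned to 0.34 after 1/3 PH and 0.35 after 2/3 PH with the deposited values.

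**Figure D4:**
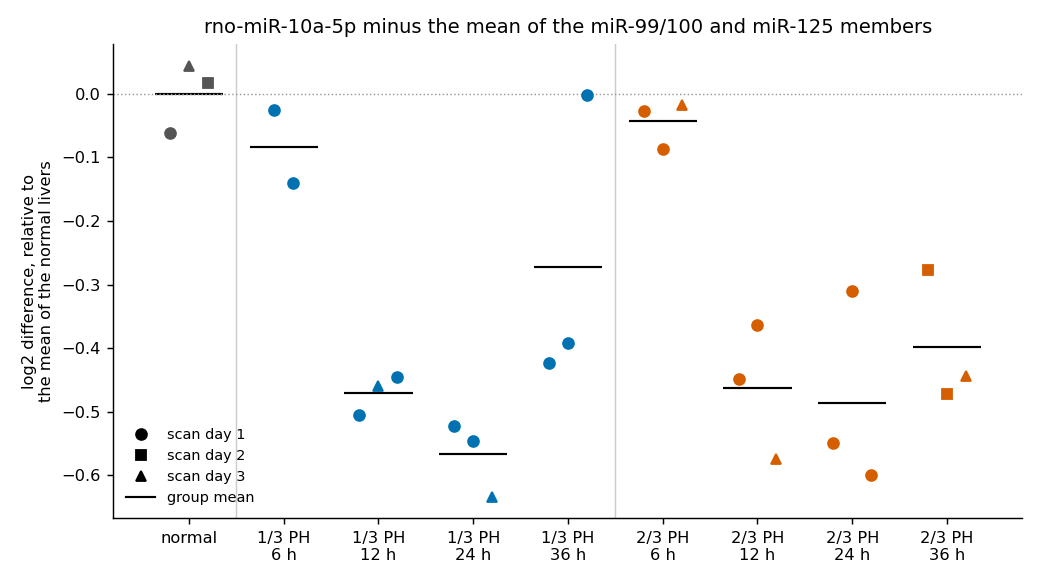
Log2 difference of rno-miR-10a-5p and the mean of rno-miR-99a, rno-miR-100, rno-miR-125a-5p and rno-miR-125b-5p for each of the 26 rats, relative to the mean of the normal livers. Black lines are group means and shapes give the scan day. The rats at 12 and 24 hours after either operation sit between -0.63 and -0.31, below the normal livers.

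The let-7 neighbours were taken from a list of 3, let-7a, let-7c and let-7e, all detected on 26 arrays. let-7a and let-7c were called in 0 of the 15 comparisons, with differences of -0.14 (adjusted p = 0.269) and -0.11 (adjusted p = 0.511) between 6 and 36 hours after 2/3 PH. let-7e, which shares the Spaca6 cluster with miR-125a, fell from 6 to 36 hours after 2/3 PH by 0.55 (SE 0.13, adjusted p = 0.00292, and 0.0484 with scan day as a block), and its F test over the 9 groups gave an adjusted p of 0.00772. It measured 7.26, 7.22 and 7.13 at 6 hours, 6.71, 6.63 and 6.64 at 36 hours, and 7.30, 6.78 and 6.88 in normal livers. Against normal liver its difference at 36 hours was -0.33 (adjusted p = 0.0793).

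Over the 26 arrays, let-7e was the miRNA outside the families most like miR-125a-5p, with Pearson r = 0.82, which was 0.93 over the 9 group means and 0.75 for deviations from scan-day means. These points share their slides and scan days and are given as a description. Next were miR-511* (0.69) and miR-181a (0.65). For miR-10a-5p the most alike were miR-26a (0.85), miR-511* (0.85) and miR-26b (0.85), with 0.91, 0.92 and 0.96 over group means. miR-26a was itself lower than normal at 36 hours after 2/3 PH, by a log2 difference of -0.64 (limma, SE 0.11, adjusted p = 0.000402). In the same comparison miR-511* differed by -0.69 (adjusted p = 0.0142) and miR-26b by -0.26 (adjusted p = 0.0823), the last not called. For miR-99a the most alike were miR-126 (0.69), its cluster partner let-7c (0.66) and miR-103 (0.59). miR-100 was most like miR-199a-5p (0.69), let-7e (0.67) and miR-30b-3p (0.66), and miR-125b-5p most like miR-23b (0.76), miR-26a (0.67) and miR-23a (0.58). miR-99a and miR-125b-5p, which share the chromosome 11 cluster, had r = 0.51, and 0.82 for deviations from scan-day means. The r of other pairs within a cluster varied. miR-100 had r = 0.29 with let-7a and 0.53 with miR-125b-5p. miR-125b-5p had 0.30 with let-7a and 0.29 with let-7c, the last 0.64 for deviations from scan-day means. let-7e also ran with miR-10a-5p (0.67), which lies on another chromosome. The median r with all other tested miRNAs lay between -0.11 and 0.13 for the 5 members. Among the members themselves, miR-100 and miR-125a-5p came closest (0.72), and miR-10a-5p ran with miR-125a-5p (0.62) more than with miR-99a (0.18), both of these without a test. On 9 of 26 arrays miR-100 lay at the floor, so floor values enter every r given for it.

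**Figure D5:**
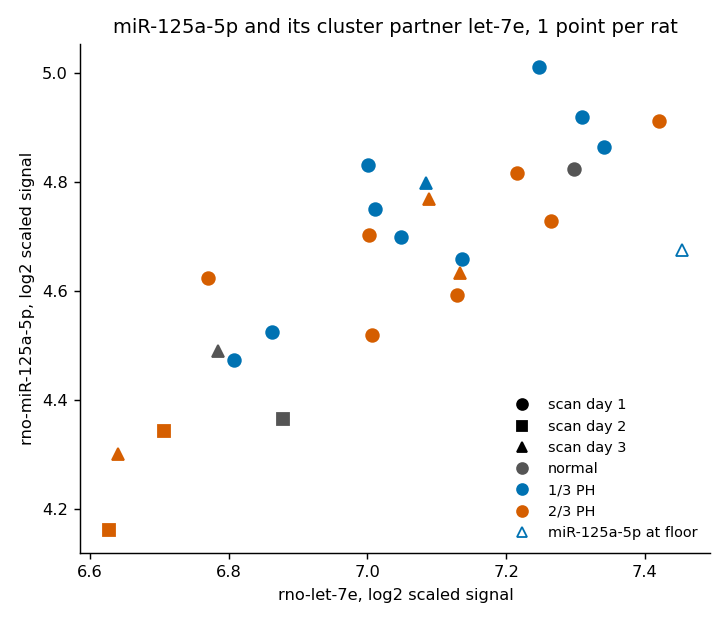
Log2 scaled signal of rno-miR-125a-5p against that of its cluster partner rno-let-7e, 1 point per rat, coloured by operation and shaped by scan day. The open marker is the array m5m, where rno-miR-125a-5p was at the floor. The points run together (r = 0.82 over 26 arrays), with the 3 rats of 36 hours after 2/3 PH at the lower left.

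Of the 8 other arms of the members, 6 were detected on no array, miR-99a* on 3, and miR-125a-3p on 22. miR-125a-3p, the opposite strand of the miR-125a hairpin, was the only one tested and was not called. At 36 hours after 2/3 PH it measured 7.14, 5.56 and 6.75, compared with 5.23, 4.45 and 5.16 in normal livers, a difference of 1.54 (95% interval 0.20 to 2.88, adjusted p = 0.1) where miR-125a-5p had -0.29. Its replicates spread widely, with SDs of 0.34 to 1.14 within groups.

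Some markers of other cell types also differed from normal liver. The summed linear signal of the leukocyte list, of which 4 of the 5 miRNAs on the array were detected, was 229 to 277 in normal livers, 168 to 212 at 24 hours after 2/3 PH and 207 to 219 at 36 hours. miR-142-5p of that list was detected on no array. The biliary list, of which 3 of 5 were detected and miR-200c and miR-141 on no array, gave 53.1 to 92.1 in normal livers, 110 to 141 at 24 hours and 123 to 175 at 36 hours after 2/3 PH, without overlap. It was as high after 1/3 PH at 12 hours (139 to 202) and 24 hours (112 to 141), also without overlap with normal livers. Its log2 difference from normal was 1.11 at 12 hours after 1/3 PH and 1.04 at 36 hours after 2/3 PH. Undetected miRNAs of a list enter its sum at no less than the array's floor. That floor was 25.6 units on m5m of 12 hours after 1/3 PH, and 11.7, 6.69 and 8.45 in the normal livers. How much of the sums at 12 hours after 1/3 PH is floor was not tested. In normal livers and at these 2 late times after 2/3 PH, the endothelial list (2 of 2 detected) gave 590 to 730, 552 to 617 and 517 to 582, the stellate and mesenchymal list (4 of 5, without miR-145) 298 to 384, 324 to 476 and 302 to 326, the red cell list (2 of 2) 103 to 127, 64.2 to 126 and 77.8 to 104, and the liver list (3 of 3) 37144 to 44308, 34311 to 41108 and 38688 to 43987. Their part in the fall of miR-10a-5p and miR-125a-5p was not tested.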

How the data were processed

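The authors extracted total RNA, labelled its miRNA with Cy3, hybridized it to Agilent rat miRNA arrays and deposited, per the file headers, background-subtracted spot intensity from Agilent Feature Extraction 10.7.3.1, not normalized between arrays. They left out 1 array of 1/3 PH for poor quality. They also deposited a table of log2 values normalized between arrays, used only as an alternative. Set against the scanner values over 82 miRNAs detected on all arrays, deviations from each miRNA's mean ran the same way on every array (r 0.80 to 0.96), with slopes of 0.92 to 1.44, near 1 on most arrays as for log2 values, and its column medians were -3.32 to -2.85, while the centring step behind it is not given in the sources used here.

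From 13540 spots, spots marked as outliers were dropped, the 10 spots of each member probe were averaged and its 2 probes summed. Arrays were scaled by their 75th percentile over 109 probes well above background on all arrays, floored and logged. limma 3.58.1 in R 4.3.3 (lmFit and eBayes, residual degrees of freedom 17, prior 2.32) gave 15 contrasts and an F test, with Benjamini-Hochberg adjustment over 144 miRNAs. Tables were made with pandas 2.3.3 and numpy 2.4.6 under Python 3.11.15 and figures with matplotlib 3.10.9. The fit was tested on simulated data. The number of arrays limits the precision. The members, lists, tests and alternatives were chosen with earlier results of these data known. Named miRNAs are the 7 members, 3 let-7 partners, 8 other arms, 7 other Hox-cluster arms and, for each tested member, the 3 most correlated miRNAs, besides single miRNAs of the marker lists for detection. Alternatives covered scaling, background, probes, filters, floor, slide and scan day blocks, smaller fits, eBayes with trend, unadjusted p and each array left out. Restricting the fit to the first scan day, and leaving miR-100 out of the family mean, were added after seeing the data.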

Additional observations from a re-analysis of the deposited data

Results flagged for a closer look

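The difference between 2/3 PH and 1/3 PH passed the test for 2 of 5 tested members at 36 hours, beside 15.3% of all 144 miRNAs. For rno-miR-10a-5p it was -0.46 on the log2 scale (limma, adjusted p = 0.00412), with all 3 arrays of 2/3 PH below all 3 of 1/3 PH. For rno-miR-125a-5p it was -0.42 (adjusted p = 0.0465), also without overlap between the groups. That call held under 1 of 14 other settings and with 9 of 26 single arrays left out. For rno-miR-10a-5p the difference between the operations at 36 hours also departed from that at 6 hours, by -0.58 (adjusted p = 0.0315). This change was called for 4.17% of all miRNAs. No scan day and no slide held both operations at 36 hours, so there is no value within a day or a slide. With scan day as a block, estimated through the other groups, these differences were -0.29, -0.21 and -0.44, with adjusted p of 0.189, 0.631 and 0.132.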

How the results depend on the processing

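Of the 5 tested members, the fall of rno-miR-10a-5p against normal liver was called under 8 of 15 other settings and 25 of 26 single arrays left out at 24 hours after 2/3 PH, and under 12 of 15 and 26 of 26 at 36 hours. It was called in 11 of 15 and 26 of 26 for 36 against 6 hours of 2/3 PH, and in 10 of 14 and 26 of 26 for 2/3 PH against 1/3 PH at 36 hours. rno-miR-125a-5p was called in 7 of 15 and 24 of 26, and in 1 of 14 and 9 of 26, for these 2 comparisons. The cause of each change was not tested.

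Scaling and background. The 75th percentile over all probes, no scaling and normexp each called 0 members against normal at 24 or 36 hours of 2/3 PH, at 36 hours between the operations, from 6 to 36 hours after 2/3 PH and in the change of the difference between operations. In the F test over all groups they called 2, 0 and 0, and the percentile over all probes called 2 members between the operations at 6 hours and 5 between 6 and 36 hours of 1/3 PH. The percentile over all probes lay near background, from 0.334 signal units on m62 to 3.28 on m6, where the bright probes gave 287 and 232. Reversed values were 0.045 (normexp) for rno-miR-10a-5p at 36 hours against normal, 0.027 (percentile over all probes) and 0.11 (normexp) for it between the operations, 0.070 and 0.55 for rno-miR-125a-5p there, and 1.18 (percentile over all probes) for the change of the difference in rno-miR-10a-5p.

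Other settings. At 24 hours after 2/3 PH against normal, 0 members were called with quantile normalization, the deposited log2 values, the compared groups alone or the first scan day alone. Between the operations at 36 hours 1 was called with quantile normalization, the deposited values, the brightest probe, the software's total gene signal, a floor of 1 unit, the filter on 1 array, slide as a random block, eBayes with trend or the compared groups alone, and 0 with scan day as a block. From 6 to 36 hours after 2/3 PH, 1 was called with a floor of 1 unit, slide as a random block or scan day as a block, and 0 with slide as a fixed block. The change of the difference gave 0 with the brightest probe, the filter on 1 array or scan day as a block. The F test called 2 with the filter on all arrays and 4 with the total gene signal. By unadjusted p, the counts were 2 and 2 at 12 and 24 hours after 1/3 PH, 1 and 2 at 12 and 36 hours after 2/3 PH, 4 from 6 to 36 hours and 3 in the F test. Leaving out each array gave 0 to 1 members at 24 hours after 2/3 PH, 1 to 2 between the operations at 36 hours, 1 to 3 from 6 to 36 hours, 0 to 1 in the change of the difference and 1 to 2 in the F test.

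Relative to normal liver, miR-10a-5p minus the other families moved as follows. With the deposited values it was 0.34 and 0.35 at 6 hours after 1/3 PH and 2/3 PH, 0.011 at 12 hours after 1/3 PH and -0.13 at 36 hours after 2/3 PH. With quantile normalization it was 0.065 and 0.069 at 6 hours, -0.10 and -0.25 at 12 hours and -0.42 and -0.28 at 24 hours, 1/3 PH first. With normexp it was -7.8e-05 and -0.12, -0.30 and -0.26, and -0.28 and -0.26 at these times. The total gene signal gave 0.062 and 0.10 at 6 hours and -0.39 at 12 hours after 1/3 PH, and a floor of 1 unit gave 0.10, 0.00888 and -0.32 there. Without rno-miR-100 it was -0.37 and -0.50 at 12 and 24 hours after 1/3 PH. Leaving out single arrays gave -0.50 to -0.45 and -0.60 to -0.53 at these 2 times.

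No paired analysis was possible because replicate numbers were given in accession order and pair no arrays. With 2 or 3 rats a group and no labels on litters or surgery days, p-values measure the spread between arrays within groups. This spread mixes rat with array and, where a group spans several, with slide and scan day, and is pooled over 9 groups. Signal over background limits miR-10b, miR-99b and miR-100, and miR-125a-5p rests on 1 dim probe. The group of 1/3 PH at 12 hours holds the dim array.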
